A study of Mus musculus with 14 samples.

Results

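A group of 10 mouse mRNAs of the translation machinery was followed across inhibition of mTOR and knockdown of METTL3 or ABCF1. They encode 6 factors that drive peptide elongation (Eef1a1, Eef1b2, Eef1d, Eef1g, Eef2 and Eif5a), the poly(A)-binding proteins Pabpc1 and Pabpc4, the small-subunit protein Rack1, and Tpt1, the translationally controlled tumour protein. The members were taken by gene symbol, with the symbol read from GENCODE M21 by transcript identifier, and all 10 were found among the 14241 genes listed. Each gene was represented by the listed transcript with the highest mean level.

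TOP mRNAs begin at the cap with a cytosine followed by an uninterrupted run of pyrimidines, the 5′ terminal oligopyrimidine motif. When the kinase mTOR is inhibited, unphosphorylated 4E-BPs and the cap-binding protein LARP1 hold these mRNAs out of polysomes, while the mRNAs themselves are largely kept. Ribosomal proteins form the largest class, and elongation factors, poly(A)-binding protein and several initiation factor subunits are known to share the motif.

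Mouse embryonic fibroblasts of strain C57BL/6J gave 14 libraries, 7 built from footprints that ribosomes shield from nuclease (Ribo-seq, 25 to 35 nt) and 7 from fragmented RNA (RNA-seq, 40 to 60 nt). The groups were Torin (Torin1, an mTOR kinase inhibitor, at 250 nM for 2 h, 1 library per assay), METTL3 knockdown (an RNA methyltransferase that makes N6-methyladenosine, 2 replicates per assay), ABCF1 knockdown (a ribosome-associated ATP-binding protein, 2 replicates per assay) and Scram (the scrambled control, 2 replicates per assay). Cells of all groups were washed and lysed in cycloheximide at 100 µg/ml. The labels name a hairpin for each knockdown but neither the cells given Torin1 nor the vehicle of each library. Nor do they tell whether replicates came from different cultures, and p-values cover the spread among these libraries alone. As the samples are bulk lysates, fewer cells of a kind and less RNA per cell cannot be told apart.

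The deposited values are reads per kilobase of transcript and sequencing depth (RPKM), given below after scaling every library to a common median gene. The depth implied by the values spanned 1764403 to 5155234 reads over the Ribo-seq libraries, and 1197839 to 3802687 over those of RNA-seq, lowest with Torin in both assays. Libraries fell into 2 sets that the groups do not explain. Replicate 1 libraries stood apart from the replicate 2 and Torin libraries, with correlations across genes within a set of 0.862 to 0.97 (RNA-seq) and 0.925 to 0.978 (Ribo-seq libraries), against 0.579 to 0.668 and 0.652 to 0.709 between sets. Lars2 took 35.4% to 41.6% of RNA-seq reads in the second set and was not listed in the first. Every difference was therefore taken within a set, each knockdown minus Scram of the same replicate and Torin minus Scram replicate 2. The hairpin targets were lower under their own hairpin: Mettl3 RNA-seq levels were 2.82 and 4.04 with METTL3 knockdown, against 9.72 and 5.20 in Scram. In replicate 2 this was a log2 difference of only -0.30, from 9 reads with METTL3 knockdown and 36 in Scram. Ribo-seq of Mettl3 differed by -2.62 and -1.20, and neither limma fit called Mettl3 in either assay. Abcf1 RNA-seq levels were 13.8 and 25.2 with ABCF1 knockdown, against 47.3 and 52.8 in Scram. Markers fitted the labelled cell type: 6 to 8 of 8 fibroblast markers were listed in each RNA-seq library, with a summed level of 1329 to 3148, against 0 to 5.01 for 4 leukocyte markers, 0 to 1.57 for 4 endothelial markers and 30.5 to 63.5 for 4 epithelial markers. Itgam, Cdh5 and Epcam were listed in no RNA-seq library. Of the fibroblast markers, Pdgfra and Pdgfrb were not listed in the Torin or Scram replicate 2 libraries of either assay.

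The first bases of annotated transcripts show where the TOP run can be read directly and where it cannot. Capitals below mark the first run of a C followed by at least 4 bases that are C or T, and each sequence is read 5′ to 3′ from GRCm38. Rack1 and the alternative transcripts of Eef1b2 and Tpt1 are shown because they begin with such a run. The transcripts on which levels of Eef1b2 and Tpt1 were taken hold no such run in their first 25 bases. An alternative transcript of Pabpc4 also begins with a run, of 5 bases, and is not shown. The Eef2 transcript is shown because its run starts at base 16, and Eef1a1 because its run spans the RefSeq gene start, beginning 5 bases upstream. Eif5a is shown as the member with the smallest response to Torin1, and no such run is in the bases shown.
Rack1 (chr11:48800360-48800384, plus strand): CTTTTTCTCCacagggtcgtggtgg
Eef1b2 (chr1:63177130-63177154, plus strand): CTTTTTTTCCCTCagcgctggccgc
Tpt1 (chr14:75845331-75845355, plus strand): CTTTTCCgcccgctcccccctcccc
Eef2 (chr10:81176631-81176655, plus strand): gttgacgtcagcggtCTCTTCCgcc
Eef1a1 (chr9:78481705-78481729, minus strand): CCCTCTTCCCgagggtgggggagaa
Eif5a (chr11:69921362-69921386, minus strand): gcgggggtggaaggtggtggagcta

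RefSeq windows around the gene start (GRCm38.p6) were at hand for 7 of the 10 genes, all but Eef1d, Eef1g and Pabpc1. On the gene's strand, a run of C followed by at least 4 pyrimidines began within 10 bases of a RefSeq start in 2 of these 7 genes (Eef1a1 and Rack1), against 34.4% of 27025 genes with a window and 39 of 62 ribosomal protein genes. A C followed by at least 4 pyrimidines lay exactly at the start in 1 of 7, Rack1, against 3.01% of all genes. The Rack1 run reaches further upstream in the genome: it is 16 bases long and begins 6 bases before that start. GENCODE lists more starts per gene: a transcript that begins with the run existed for 4 of 7 (Eef1b2, Tpt1, Pabpc4 and Rack1), against 10.9% of 6989 tested genes and 20 of 49 ribosomal protein genes. These counts describe annotated starts, and the cap sites used in these cells were not measured.

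In Torin-treated cells 7 of the 10 mRNAs had less than 0.5 of the footprint level of Scram replicate 2, while their RNA levels hardly differed. The main limma fit did not call them, and some were called only in an alternative fit with the replicate set as a term. Tpt1 and Eef1a1 had the largest differences in Ribo-seq, at -3.20 and -3.01 (log2 difference, Torin minus Scram replicate 2), followed by Pabpc1, Eef1b2, Rack1, Eef2 and Eef1g. Eef1d, Pabpc4 and Eif5a were lower by less than 2-fold. All 10 were thus below Scram replicate 2 in Ribo-seq, where 50% of all tested genes were, and in TE (translation efficiency, the Ribo-seq over the RNA-seq level), where 48.3% were. For Eif5a the sign in TE depended on the scaling, with 0.27 without scaling and 0.56 with quantile normalization. The 10 mRNAs together took 0.672% of Ribo-seq reads with Torin (95% exact binomial interval 0.66% to 0.684%). In Scram replicate 2 they took 2.64% (2.63% to 2.66%), and this measure involves no scaling. Their share of RNA-seq reads was 1.07% with Torin and 1.12% in Scram replicate 2. These intervals cover counting error only, as reads without molecular identifiers are not independent molecules.

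Eef1a1 encodes eEF1A, the GTPase that delivers aminoacyl-tRNA to the ribosome (chr9:78478449-78481724, minus strand). Its Ribo-seq level was 1042 RPKM with Torin, 2159 and 9147 with METTL3 knockdown, 1564 and 8953 with ABCF1 knockdown, and 2711 and 8388 in Scram. The Torin library was the lowest of the 7, although replicate 1 of every group lay far below replicate 2. In RNA-seq the level was 3343 with Torin, 1594 and 3059 with METTL3 knockdown, 919 and 2779.9 with ABCF1 knockdown, and 1579.6 and 2894 in Scram. Torin thus had the highest RNA level and the lowest footprint level of the set of 7. By reads, the footprint ratio of Torin over Scram replicate 2 was 0.124 (95% counting interval 0.12 to 0.129, from 3206 reads with Torin and 48604 in Scram replicate 2).

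The exchange factor eEF1B, which reloads eEF1A with GTP, is built from the products of Eef1b2, Eef1d and Eef1g. For the mRNAs of these genes the footprint differences between Torin and Scram replicate 2 were of unlike size. Eef1b2 (chr1:63176825-63180486, plus strand), the catalytic alpha subunit, had a Ribo-seq level of 338 RPKM with Torin, 2629 and 2157 with METTL3 knockdown, 1903 and 2052 with ABCF1 knockdown, and 2371 and 2080.01 in Scram. The other 6 libraries lay within a narrow range and the Torin library lay far outside it. Eef1b2 RNA-seq levels were 239 with Torin, 154 and 228 with METTL3 knockdown, 151 and 195 with ABCF1 knockdown, and 184 and 212 in Scram.

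Eef1d (chr15:75894800-75909340, minus strand), the gene of a further exchange subunit, was measured on 1 of its 5 listed transcripts, with a coding length of 1980 nt. Which protein form this transcript encodes was not examined. Eef1d had a Ribo-seq level of 237 RPKM with Torin, 310.5 and 489 with METTL3 knockdown, 253 and 389 with ABCF1 knockdown, and 355 and 369 in Scram. The Torin value was the lowest but lay close to ABCF1 knockdown replicate 1. Its RNA-seq level was 74.8 with Torin and 60.5 and 68.9 in Scram, and it ranged from 34.9 to 85.8 over all libraries. The footprint ratio for Eef1d was 0.644 (counting interval 0.599 to 0.691), and that for Eef1b2 was 0.162 (0.148 to 0.178). These intervals leave out the spread between libraries, so a difference in response between these transcripts was not tested.

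Eef1g (chr19:8967041-8978479, plus strand) encodes the gamma subunit, a structural part of the complex. Its Ribo-seq level was 475 RPKM with Torin, 465 and 2169 with METTL3 knockdown, 439.8 and 1875 with ABCF1 knockdown, and 677 and 1594 in Scram. Here the Torin library was not the lowest: both knockdown libraries of replicate 1 lay below it, and the difference shows only within the second set. The footprint ratio to Scram replicate 2 was 0.298 (0.281 to 0.315). RNA-seq levels of Eef1g were 429 with Torin and 299 and 449.5 in Scram.

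Eef2 (chr10:81176631-81182498, plus strand) encodes the translocase that moves tRNAs and mRNA after each peptide bond. Footprint levels of Eef2 were 202 RPKM with Torin, 569 and 928 with METTL3 knockdown, 484 and 871 with ABCF1 knockdown, and 672 and 796 in Scram, so Torin was the lowest library. In RNA-seq it was the highest, at 664, against 496 and 549.8 with METTL3 knockdown, 323 and 501 with ABCF1 knockdown, and 542 and 589.9 in Scram.

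Eif5a (chr11:69916720-69921386, minus strand) encodes eIF5A, the hypusine-bearing factor that helps ribosomes through difficult peptide bonds and at termination. Its Ribo-seq level was 2495 RPKM with Torin, 4099.5 and 3103 with METTL3 knockdown, 2529 and 3102 with ABCF1 knockdown, and 3797 and 3118 in Scram. The Torin library was lowest here too, but within a few per cent of ABCF1 knockdown replicate 1. With Torin the reads stood at 0.80 of Scram replicate 2 (0.764 to 0.838), and RNA-seq reads at 0.866 (0.789 to 0.95). Both assays moved by nearly the same amount, and TE differed by -0.12 on the log2 scale.

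Tpt1 (chr14:75845093-75848415, plus strand) encodes a small, abundant protein that is a classical TOP target. Its Ribo-seq level was 404 RPKM with Torin, 1223 and 3582 with METTL3 knockdown, 1857 and 3925 with ABCF1 knockdown, and 838 and 3717 in Scram. Torin was the lowest of the 7 libraries. RNA-seq levels were 740.5 with Torin, 100 and 677 with METTL3 knockdown, 89.9 and 749 with ABCF1 knockdown, and 81.1 and 730.3 in Scram. Replicate 1 lay far below replicate 2 in each group, and replicate 1 files list the gene under 2 transcripts. Summed over both, Tpt1 RNA-seq had 814 RPKM with Torin, 410.1 and 741 with METTL3 knockdown, 688 and 815 with ABCF1 knockdown, and 354 and 801 in Scram.

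Rack1 (chr11:48800360-48806434, plus strand) encodes a scaffold protein on the head of the small ribosomal subunit. Its Ribo-seq level was 651 RPKM with Torin, 5102 and 2699 with METTL3 knockdown, 4083 and 3028 with ABCF1 knockdown, and 6479.7 and 2792 in Scram. Torin lay clearly below all others, and in contrast to Eef1a1 the replicate 1 libraries were the higher ones. RNA-seq levels of Rack1 were 694 with Torin, 754 and 746 with METTL3 knockdown, 508 and 542 with ABCF1 knockdown, and 833 and 681 in Scram. Both ABCF1 knockdown libraries were the lowest in RNA-seq, but the difference was not called (block fit of limma -0.52, SE 0.19, adjusted p = 0.703). How many of all genes order their libraries this way was not counted.

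Pabpc1 and Pabpc4 encode cytoplasmic poly(A)-binding proteins, which coat the mRNA tail and contact the cap-binding complex. Pabpc1 (chr15:36595661-36608973, minus strand) had a Ribo-seq level of 33.8 RPKM with Torin, 155 and 215 with METTL3 knockdown, 144 and 238 with ABCF1 knockdown, and 179.9 and 225 in Scram. The Torin value stood well apart from the other 6. RNA-seq levels were among the steadiest of the 10, at 493 with Torin, 545 and 503 with METTL3 knockdown, 419 and 495 with ABCF1 knockdown, and 529.6 and 494 in Scram. Pabpc4 (chr4:123282911-123298832, plus strand) was scarce on its kept transcript, with 15 Ribo-seq reads with Torin and 39 in Scram replicate 2. Its footprint ratio of 0.725 had a counting interval of 0.371 to 1.34, so a change of this size was not detectable at this depth. Pabpc4 levels in replicate 1 spanned 1.36 to 1.58 for footprints and 0.530 to 1.93 for RNA, where most of its reads stood under another transcript.

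**Figure D1:**
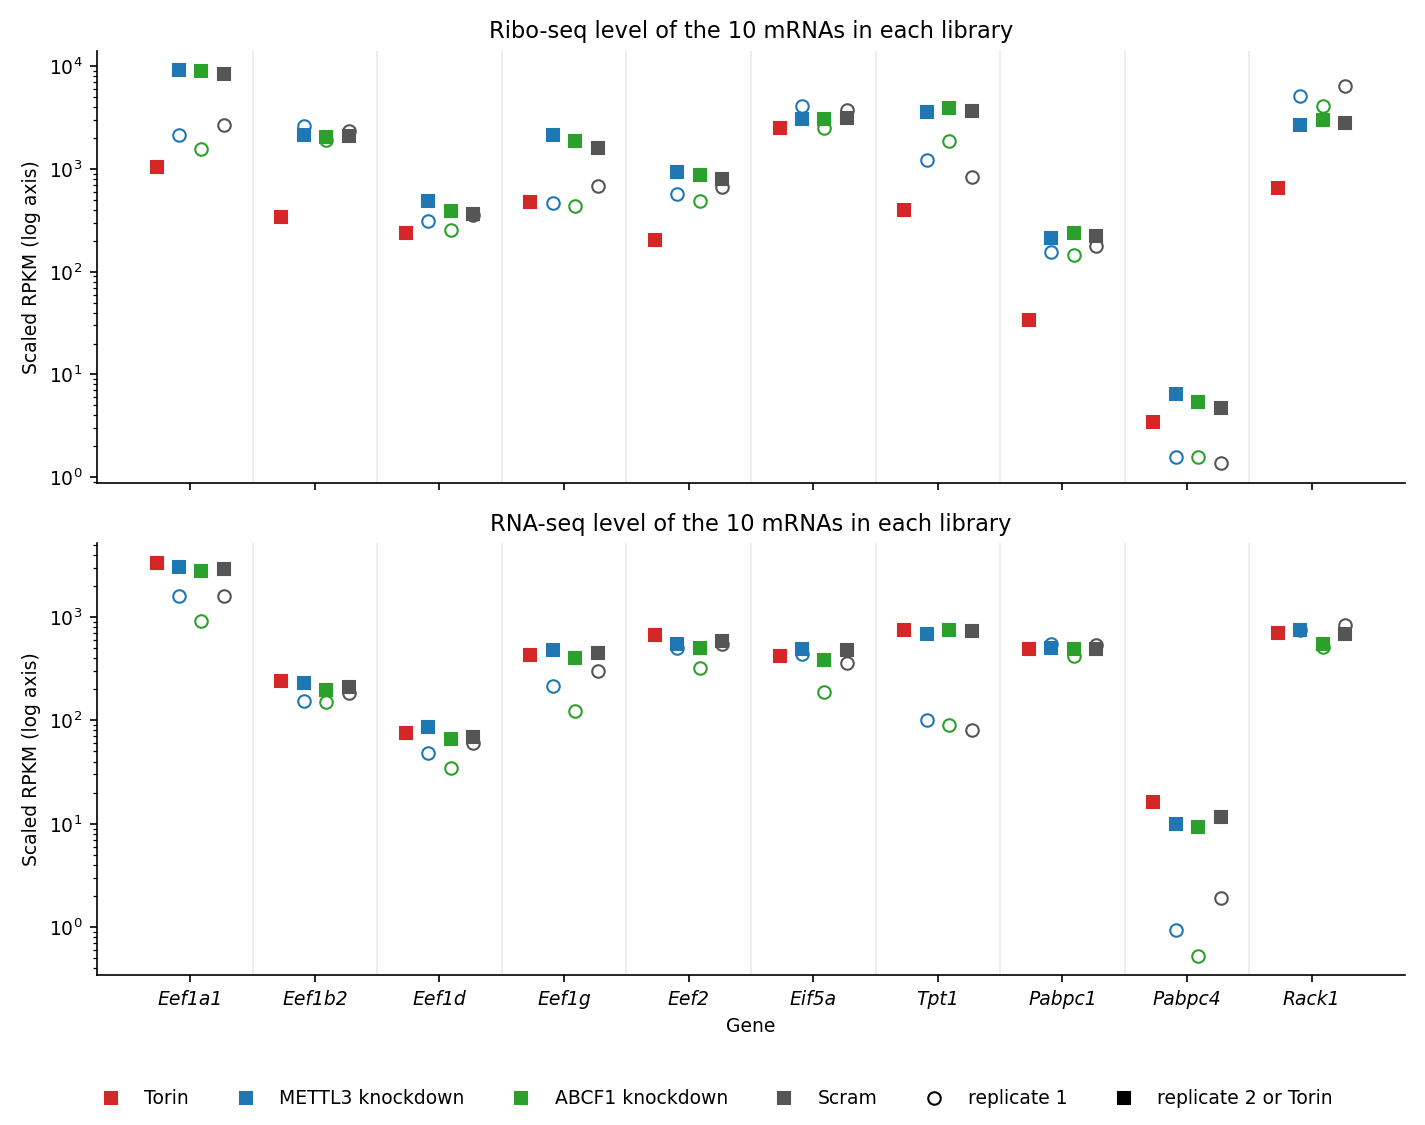
Scaled RPKM (log axis) of the 10 mRNAs in every library, Ribo-seq above and RNA-seq below; open circles are replicate 1, filled squares are replicate 2 or Torin, and colours are groups. With Torin the footprint levels of Eef1b2 (338), Pabpc1 (33.8) and Rack1 (651) lie below all 6 other libraries, while the RNA-seq panel shows no such gap.

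Few of all tested genes had footprint differences of this size. In Ribo-seq 5.96% of 9531 tested genes were at least 2-fold lower with Torin than in Scram replicate 2, and 7 of the 10 mRNAs were. In TE the background was 5.66% of 8824 genes, and the same 7 mRNAs were at least 2-fold lower, of which Eef1g was at -0.93 in place of -1.68 with quantile normalization. In RNA-seq 7.64% of 9018 genes were at least 2-fold lower and 0.998% at least 2-fold higher, and 0 of the 10 mRNAs were in either class. The median difference over the 10 mRNAs was -2.03 in Ribo-seq, -2.13 in TE and 0.07 in RNA-seq, where the median of all tested genes was 0.00, 0.02 and -0.02. Genes with many footprints were looked at as well, namely 791 outside the TOP lists with at least 200 RPKM in Scram replicate 2. Of these, 7.84% were at least 2-fold lower in TE, and their median was -0.26. That level, which 9 of the 10 mRNAs reach, is a lower bound and was set after the values were seen. The 791 genes were not matched to the levels of the 10 mRNAs, and the part of abundance was not tested.

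**Figure D2:**
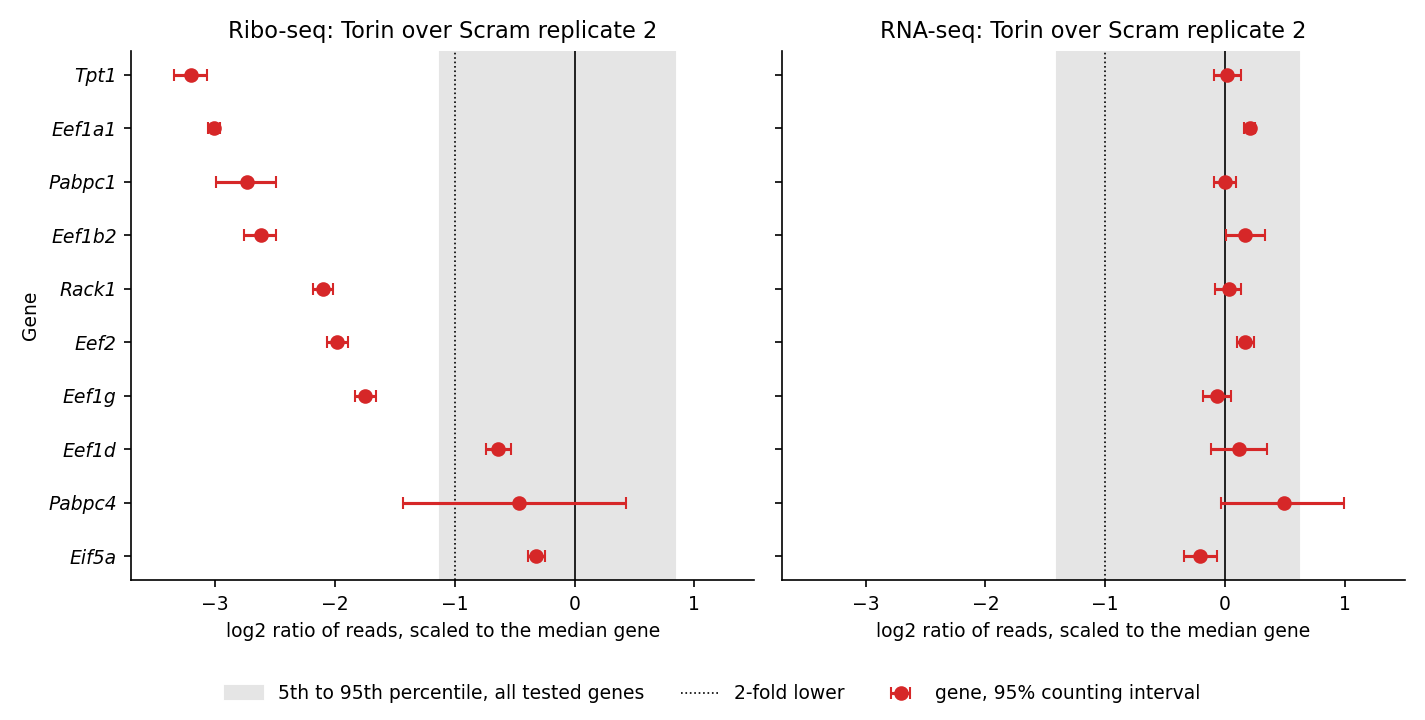
Log2 ratio of reads, Torin over Scram replicate 2 and scaled to the median gene (no pseudocount), for each of the 10 mRNAs with its 95% counting interval, Ribo-seq left and RNA-seq right; the grey band is the 5th to 95th percentile of all tested genes and the dotted line marks 2-fold lower. In Ribo-seq 7 genes lie left of the band, from -3.20 for Tpt1 to -1.75 for Eef1g, and in RNA-seq all 10 lie inside it.

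With 1 Torin library per assay, the test rests on the spread of the other groups. The limma fit without a term for the set called 0 genes in any of the 9 comparisons and measures at an adjusted p under 0.05. For Eef1b2 that limma fit put the footprint difference at -2.71 with an SE of 0.38 (adjusted p = 0.89). With the replicate number as a block, and Torin placed with replicate 2, 6 of the 10 mRNAs were called lower in Ribo-seq, where 1.21% of all genes were. Pabpc1 changed by -2.79 (SE 0.27, adjusted p = 0.0101), and Eef1b2, Eef1a1, Tpt1, Eef2 and Rack1 had adjusted p-values of 0.0124 to 0.0244. Eef1g, at -2.05, did not pass (limma, adjusted p = 0.0589). In TE the blocked limma fit called 4 of the 10, where it called 0.329% of all genes lower. These were Eef1b2 and Pabpc1, each at -2.73 (SE 0.33, adjusted p = 0.02), Eef1a1 at -3.31 (SE 0.49, adjusted p = 0.0355) and Tpt1 at -3.03 (SE 0.47, adjusted p = 0.0408). Eef2 and Rack1 had TE changes of -2.23 and -2.19 and did not pass (adjusted p = 0.0575 and 0.065). In RNA-seq it called 0 of the 10, where 0.0998% of all genes were called lower.

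The 10 mRNAs also differed in where their TE stood to begin with. TE is given relative to the median gene of a library, and it is a ratio of levels per length. Eef1b2 stood at 0.573 with Torin, against 5.35 and 3.97 in Scram, which placed it at percentile 23.9 with Torin and at 94.5 and 96.1 in Scram. Tpt1 stood at 0.221 with Torin, against 4.27 and 2.07 in Scram. Rack1 stood at 0.381 with Torin, against 3.25 and 1.66 in Scram. These mRNAs were among the better translated in Scram and stood below the median gene with Torin. Pabpc1 was poorly translated in Scram as well, at 0.143 and 0.186, and was at 0.0285 with Torin, at percentile 0.0907 of all tested genes. Eef2 had 0.124 with Torin, against 0.519 and 0.548 in Scram. Eif5a stayed high at 2.43 with Torin, against 4.41 and 2.64 in Scram, and Eef1d was at 1.27 with Torin, against 2.42 and 2.15 in Scram.

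As lists, other genes of the elongation cycle lay near the median gene. Among 5 of 6 other elongation factors tested, the median TE difference for Torin was -0.14. Eif5a2, the paralog of Eif5a, was the exception at -1.69, with a Ribo-seq level of 6.84 RPKM with Torin (7 reads) and 22.8 in Scram replicate 2 (44 reads). Eef1e1, an auxiliary protein of the tRNA synthetase complex, differed by -0.53, and Gtpbp1, a GTPase related to eEF1A, by 0.47. Eef1a2, the paralog of Eef1a1 in muscle and neurons, was not listed in the Torin or Scram replicate 2 files. Of the enzymes that build diphthamide on eEF2 or hypusine on eIF5A, 7 of 9 were tested, with a median of 0.20. Among these, Dph3, needed for diphthamide synthesis, differed by -0.73, Dohh, the deoxyhypusine hydroxylase, by 0.70, and Dph2, a further diphthamide synthesis protein, by 0.36.

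Termination and recycling factors had a median TE difference of -0.11 over 5 genes. Etf1, the release factor eRF1, differed by -1.04, Pelo, which rescues stalled ribosomes, by 1.04, and Abce1, which splits ribosomes after termination, by -0.33. For Pelo the RNA-seq level was 5.89 with Torin and 12.6 in Scram replicate 2, while its Ribo-seq level was 40.2 with Torin and 38.5 in Scram replicate 2. Among mitochondrial elongation factors the 3 with values had a median of -0.27, with Gfm1 at 0.37 and Gfm2 at -0.28, both translocation or recycling factors of the mitochondrial ribosome. Tufm, the mitochondrial EF-Tu, was absent from both Torin files on its kept transcript and gives no fold. Of the poly(A) tail proteins and partners of poly(A)-binding protein, 4 of 7 were tested, with a median of -0.32. Pan3 and Pan2, which form a deadenylase, differed by -0.63 and -0.30, and Larp4, which binds poly(A)-binding protein, by -0.35. The blocked fit called 0 genes of these 5 lists in TE.

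The TOP classes themselves lay on the same side as the 10 mRNAs. Of 83 ribosomal protein genes, 67 were tested in TE. Rps23 was absent from the Torin Ribo-seq file, against 64.4 RPKM in Scram replicate 2, and gives no fold. Of the other 66, 65 were at least 2-fold lower with Torin, and the median was -2.21. Rpl27a and Rpl11 had the next largest differences in TE, at -3.37 and -3.20. The blocked fit, in which an absent transcript counts as 0, called 48 of the ribosomal protein genes lower in Ribo-seq and 17 in TE, Rps23 among both. Other TOP mRNAs had a smaller median: 14 of 15 tested were lower, 10 of them at least 2-fold, with a median of -1.06. The blocked fit called 3 of these 15 lower in Ribo-seq and 0 in TE. Npm1, a nucleolar chaperone, differed by -1.93 in TE. Eif3f and Eif3h, subunits of initiation factor eIF3, differed by -1.70 and -1.51, while Eif3a, the large eIF3 subunit, was 0.17 higher. Fibroblast markers had a median TE difference of -1.07 over 6 tested genes, with Vim at -1.21, Thy1 at -1.15 and Col1a1 at -1.08. Vim is in the list of other TOP mRNAs as well, and without it the median over the 5 remaining markers was -1.05. Krt18, the epithelial marker that was tested, differed by -1.74. The part of these markers in the result was not tested.

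**Figure D3:**
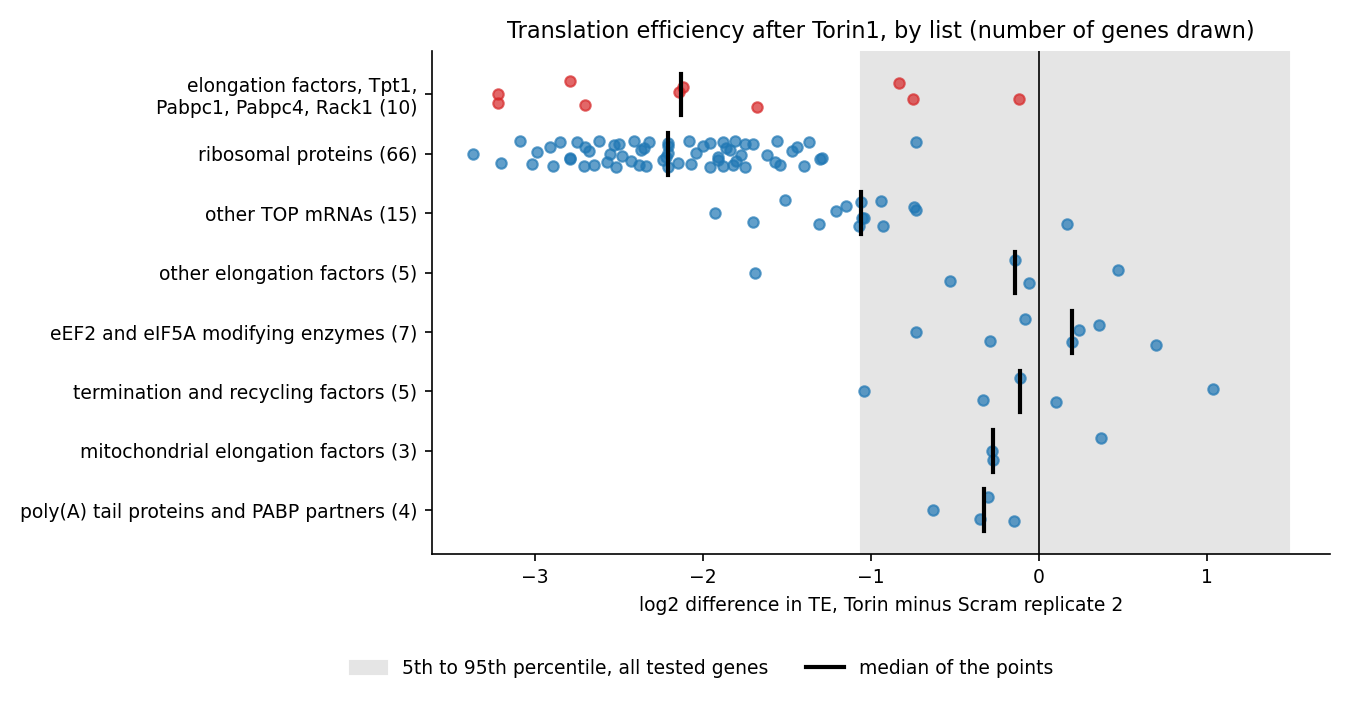
Log2 difference in TE, Torin minus Scram replicate 2, for each tested gene by list; black bars are medians of the points, the grey band is the 5th to 95th percentile of all tested genes, and Rps23 and Tufm, absent from a Torin file, are left out. The 10 mRNAs (red, median -2.13) and the ribosomal proteins (median -2.21) lie left of the band for the most part, and the other TOP mRNAs straddle its edge.

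Genes whose TE pattern over the 3 treatments was most like the mean of the 10 mRNAs were ranked by Euclidean distance over 5 differences (both replicates of each knockdown, and Torin), among 3888 genes listed in all 14 libraries with a mean of at least 10 RPKM. The mean pattern was 0.03 and 0.11 with METTL3 knockdown, 0.37 and 0.25 with ABCF1 knockdown, and -1.96 with Torin. The 5 nearest genes were Rpl4 (distance 0.22), Rpl5 (0.27), Ybx1 (0.37), Eif3f (0.45) and Rpl23 (0.50). Among these, Rpl4, Rpl5 and Rpl23 encode large-subunit ribosomal proteins and Ybx1 an RNA-binding protein with a cold-shock domain.

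With METTL3 knockdown the 10 mRNAs had medians near 0 in every measure. The median difference was 0.00 in RNA-seq, 0.02 in Ribo-seq and 0.10 in TE, and neither limma fit called a member. In RNA-seq 2 of the 10 were lower in both replicates, where 26% of all genes were, and 3 were higher in both, where 25.4% were. In Ribo-seq 2 were lower in both (background 25.2%) and 2 higher (27.9%). In TE 3 were lower in both (24%) and 3 higher (28.9%), so the members' shares were near those of all genes. Eef1g showed how far replicates parted: its Ribo-seq difference was -0.54 in replicate 1 and 0.44 in replicate 2. Pabpc4 had the largest TE difference, 0.72 and 0.59, from the few reads noted above (block fit of limma 0.65, SE 0.37, adjusted p = 0.999). Rack1 was at -0.20 and -0.18 in TE, and Pabpc1 at -0.25 and -0.09. The mRNAs took 1.31% and 2.69% of Ribo-seq reads with METTL3 knockdown, against 1.49% and 2.64% in Scram.

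With ABCF1 knockdown RNA-seq levels of the 10 mRNAs tended below Scram, chiefly in replicate 1, and TE above it, but no member passed either fit. In RNA-seq 8 of the 10 were lower in both replicates, where 29% of all genes were, and 1 was higher in both (21.8%). The median was -0.76 in replicate 1 and -0.15 in replicate 2, where all genes had 0.00 and -0.05, so the size of the RNA-seq difference rests on replicate 1. Eef1g had the largest difference in RNA-seq, at -1.29 and -0.18, with levels of 122 and 397 with ABCF1 knockdown, against 299 and 449.5 in Scram (block fit of limma -0.73, SE 0.29, adjusted p = 0.703). Eif5a was at -0.94 and -0.31, Rack1 at -0.71 and -0.33, and Eef2 at -0.74 and -0.23. Tpt1 was the 1 member higher in both, at 0.15 and 0.04. The 10 mRNAs took 0.765% and 0.815% of RNA-seq reads with ABCF1 knockdown, against 1.16% and 1.12% in Scram. These shares are unscaled, and in replicate 2 the median RNA-seq difference of all genes was -0.35 without scaling, with Lars2 at 41.6% of reads with ABCF1 knockdown and 35.4% in Scram.

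Footprints did not follow in both replicates. In Ribo-seq 2 of the 10 were lower in both replicates of ABCF1 knockdown (background 22.9%) and 2 higher in both (25.4%), with medians of -0.48 in replicate 1 and 0.09 in replicate 2. In TE 8 of the 10 were higher in both replicates, where 29.4% of all genes were, and 0 were lower in both (21.6%). The TE medians were 0.28 and 0.23, where all genes had 0.00 and 0.09. Eef1g was at 0.67 and 0.41, Eif5a at 0.36 and 0.31, Eef2 at 0.27 and 0.36, and Pabpc4 at 1.06 and 0.45. Their blocked TE changes stayed under 1 on the log2 scale, and Pabpc4, at 0.75 (SE 0.37), had a limma adjusted p of 0.996. Since TE divides by the RNA-seq level, the RNA-seq and TE counts are not independent. For Tpt1 the TE difference was 1.00 in replicate 1 on the kept transcript and -0.46 when both transcripts were summed. Ribosomal protein genes lay on the same side: 43 of 68 were lower in RNA-seq and 39 of 67 higher in TE in both replicates. Other TOP mRNAs did not share the TE difference: 5 of 15 were lower and 5 higher in both replicates, with a median of -0.02. In RNA-seq 6 of these 15 were lower in both replicates and 0 higher. Of 6 fibroblast markers, 4 were higher in TE in both replicates, with a median of 0.46, above the 0.28 of the 10 mRNAs, and their part in the result was not tested.

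**Figure D4:**
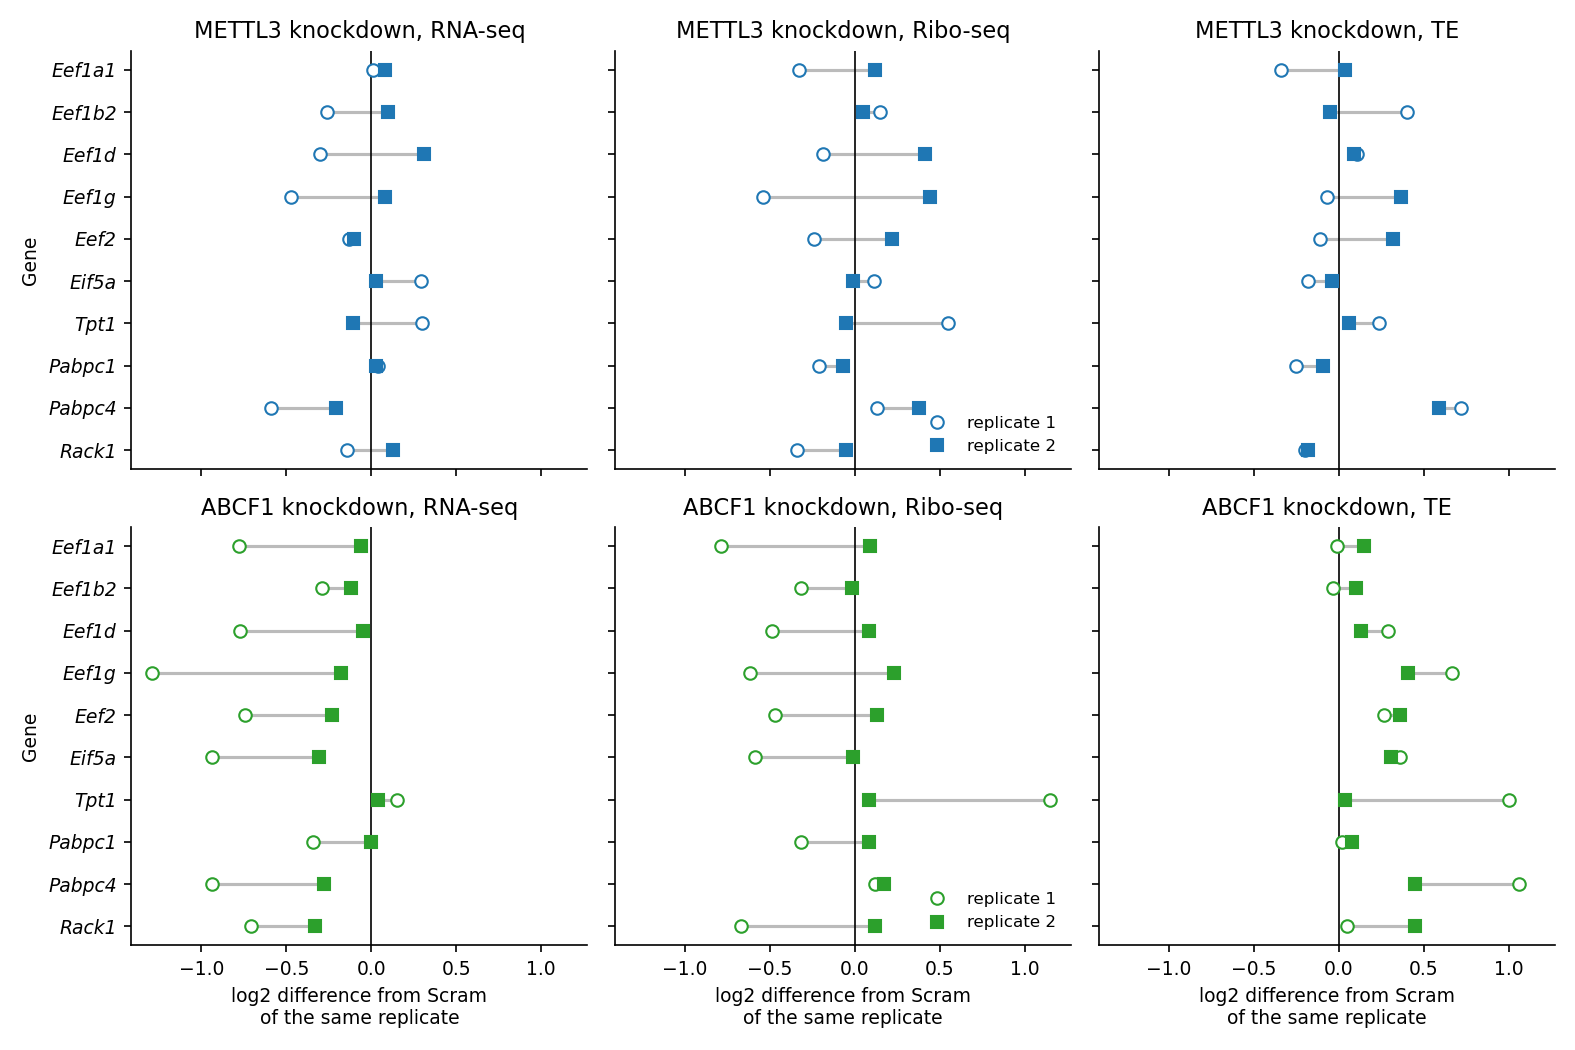
Log2 difference from Scram of the same replicate for each of the 10 mRNAs, METTL3 knockdown above and ABCF1 knockdown below, in RNA-seq, Ribo-seq and TE; open circles are replicate 1 and filled squares replicate 2, joined by a line. With ABCF1 knockdown the replicate 1 circles lie left of 0 in RNA-seq for 9 genes, Eef1g farthest at -1.29, and the replicate 2 squares lie near 0.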

How the data were processed

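The authors deposited RPKM per Ensembl transcript for 14 libraries. Reads were handled with cutadapt and Bowtie on GRCm38, per the submitters' processing notes; their versions, the annotation and how reads with several positions were treated are not stated in the labels, so values of genes with near-identical copies, such as Eef1a1, Rack1 and Tpt1, are uncertain. Of 22453 transcripts 22356 matched GENCODE M21. RPKM times length gave whole reads within 0.02 over coding length for 98.6% to 98.8% of Ribo-seq values, and over transcript length for 80.3% to 85.4% in RNA-seq, which gave the depth and the reads behind each value. The smallest library limits precision.

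Libraries were scaled to a common median and log2(RPKM + 1) was taken, so that differences of low genes are understated. Genes listed in at least 0.5 of an assay's libraries with a mean RPKM of at least 1 were tested, and TE used genes tested in both assays. A transcript absent from a file was set to 0. Differences were fitted with limma 3.58.1 in R 4.3.3 (Benjamini-Hochberg over all tested genes), with TE as the interaction of assay and group. Residual degrees of freedom were 3 in each assay and 6 for TE without a block, and fewer with it. Without a block, the difference between the library sets stays in the residual spread. Same-numbered libraries deviated together from their group means in all 3 pairs (correlation 0.816 to 0.879 in RNA-seq, 0.91 to 0.939 in Ribo-seq). The fit without the block was the main one and the block an alternative. The blocked fit is printed where it changes a call, and for some members of the knockdowns where it does not. For those members its SE was the smaller, as for Eef1g RNA-seq with ABCF1 knockdown (0.29 against 0.71). Torin carries no number and took the level of replicate 2, as its libraries resemble that set. The lone Torin library is assumed to vary like the other groups. Counting intervals are at the 95% level.

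The members and gene lists were chosen with earlier results of these data known. Named are all members, both hairpin targets, up to 3 genes per other list by the size of the Torin TE difference, and the 5 genes of nearest TE pattern; Eef1a2, Eif3a and Lars2 were named after their values were seen. Alternatives were other pseudocounts (0.1 and 5), no filter, no scaling, quantile normalization, a replicate block, summed transcripts, both Scram replicates and leaving out each replicate.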

Additional observations from a re-analysis of the deposited data

How the results depend on the processing

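The 7 mRNAs at least 2-fold lower with Torin ranged from -3.32 to -1.10 in Ribo-seq and from -3.72 to -0.93 in TE over 56 values per assay. The replicate block gave calls where the fit without it gave 0, for Torin 126 genes in Ribo-seq, 52 in TE and 10 in RNA-seq, 6 and 4 of them members in Ribo-seq and TE, and 1 gene in METTL3 knockdown Ribo-seq; it changed no other call. Without the filter on low values 15 genes were called in Torin Ribo-seq and 2 in TE, and a pseudocount of 0.1 gave 24 in TE. The Torin Ribo-seq median over the 10 mRNAs was -1.52 with quantile normalization. Its TE median was -2.30 without the filter, -1.75 without scaling, -1.66 with quantile normalization, -2.28 against the mean of both Scram replicates and -2.21 with the block. Leaving scaling out moved the median TE difference of all genes to 0.38 for Torin and 0.36 for ABCF1 knockdown replicate 2, and the ABCF1 TE median over the 10 mRNAs to 0.47. Leaving out each replicate gave medians of -0.20 to 0.09 for METTL3 in Ribo-seq, -0.09 to 0.05 in TE, and 0.23 to 0.28 for ABCF1 in TE. The Eif5a Ribo-seq difference for Torin was 0.31 with quantile normalization and its TE difference 0.27 without scaling (all genes 0.38) and 0.56 with quantile normalization, and the Ribo-seq difference of Pabpc4 was 0.27 against both Scram replicates; the cause was not tested.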
